A study of Mus musculus with 6 samples.

Results

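Vip and Lamp5 caudal-type interneurons of the mouse frontal lobe were taken from single-nucleus RNA sequencing of 6 Tg-SwDI mice by a gate on raw unique molecular identifier (UMI) counts. A nucleus was kept if it had at least 500 detected genes and at most 5% of its UMIs from mitochondrial genes. It was a member if it held at least 2 UMIs of Gad1 and Gad2 together and either at least 3 UMIs of Vip, the Vip side, or at least 2 UMIs of Lamp5 and Ndnf together with at least 1 of Adarb2, the Lamp5 side. Members also had under 5 UMIs of Sst, under 2 of Pvalb, at most 1 of Slc17a7 and Slc17a6 together, at most 2 of Rgs9 and Adcy5 together, and at most 2 of Meis2 and Pbx3 together. The gate found 254 nuclei among 30840 kept nuclei: 104 on the Vip side, 148 on the Lamp5 side and 2 that passed both sides. Those 2 nuclei were counted in the whole and in neither side. The Vip limit fell in a sparse range, with 1 Vip-side nucleus at exactly 3 UMIs and 9 otherwise fitting nuclei at 2, while the Lamp5 limit did not, with 47 nuclei at exactly 2 UMIs of Lamp5 and Ndnf and 63 at 1. A further 15 had at least 2 but no Adarb2. Of 302 nuclei with enough Gad1 and Gad2 that passed a side, 33 were left out for Meis2 and Pbx3, 13 for Slc17a7 and Slc17a6, 12 for Rgs9 and Adcy5 and 0 for Sst or Pvalb, and a nucleus could fail more than 1 limit.

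Most cortical interneurons release GABA and arise from a medial or a caudal part of the embryonic ganglionic eminences. Vip neurons, named for vasoactive intestinal peptide, mainly contact other interneurons and so release pyramidal cells from inhibition, while Lamp5 and Ndnf neurons, which include the neurogliaform cells of layer 1, spread GABA widely over the tips of pyramidal dendrites. Both belong chiefly to the caudal branch, and Sst and Pvalb neurons form the medial branch.

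The knockout group, SwDI/TKO, held 3 Tg-SwDI mice without Trem2, a microglial receptor gene. The wild-type group, SwDI/TWT, held 3 Tg-SwDI mice with Trem2 intact. All 6 mice carry the Tg-SwDI transgene, human amyloid precursor protein with the Swedish, Dutch and Iowa changes, which is driven in neurons by the Thy1 promoter and is used as a model of amyloid in brain vessels, so the comparison has no mouse without amyloid. Each mouse gave 1 library of droplet-based 3′ counts, and its age and sex are not given in the labels.

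The libraries held between 4070 and 7666 kept nuclei. The knockout libraries gave 106, 21 and 32 members, and the wild-type libraries 27, 28 and 40. Knockout replicate 1 held 41.7% of all members and 64.2% of their UMIs. It was also the library counted with Cell Ranger 7.0.0, where the other 5 had 6.1.2, so genotype fits were run with and without it. Summed member counts were 859829, 71624 and 124033 UMIs in knockout libraries and 78276, 85158 and 119532 in wild-type libraries, and median UMIs per member were 6963, 3105 and 3714 in knockout against 2677, 2729 and 2622 in wild type. Trem2 itself was nearly absent from these neurons, with 3 UMIs over all members. Over all kept nuclei it was read at 2.92, 11.2 and 5.76 CPM, the count scaled to library size, in knockout libraries and 20.4, 12.3 and 9.42 CPM in wild-type libraries, so reads of the gene were still present in the libraries labelled SwDI/TKO and replicate 2 of them overlapped the wild-type range. Any 2 libraries shared between 8 and 18 cell barcodes.

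The labelled cell type was checked with genes that the gate did not use for the nuclei in question. Adarb2, an RNA-binding protein that marks caudal interneurons, was not asked of the Vip side, yet 101 of its 104 nuclei held a UMI of it (97.1%, 95% Wilson interval 91.9 to 99.0%). In Sst or Pvalb nuclei of the same libraries, 280 nuclei chosen by the same limits with at least 5 UMIs of Sst or 2 of Pvalb, the share with an Adarb2 UMI was 0 to 10% per library, at median depths of 3348 to 8539 UMIs, and in excitatory nuclei it was 6.91 to 25.6%, at 3132 to 10006 UMIs. The medial regulators Lhx6 and Sox6 were at 0 UMIs in the Vip-side nuclei of all 6 libraries. On the Lamp5 side Lhx6 had 4 UMIs and Sox6 37 in all, where Sst or Pvalb nuclei had 197 and 1077. Slc17a8 and Sncg, which mark other Cck-rich caudal types, had 2 UMIs and 1 UMI among the members. Markers of other cells took little of the member counts, with gate genes, Synpr, Dlx6os1 and Vcan left out of the lists. The 10 microglia genes took 0.00403 to 0.0136% of UMIs in knockout and 0.00894 to 0.0211% in wild type. For 8 striatal projection neuron genes the shares were 0.0503 to 0.121% and 0.0681 to 0.101%. The counted genes of the excitatory, astrocyte, oligodendrocyte, precursor, olfactory bulb and vessel lists took at most 0.0502% per list in any library. Aqp4, Cspg4, Olig2, Neurod1, Adora2a, Cldn5 and Flt1 were at 0. Of the genes left out, Dlx6os1 and Synpr of the olfactory bulb list had 1518 and 731 UMIs over both sides, and Vcan of the precursor list 100.

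**Figure D1:**
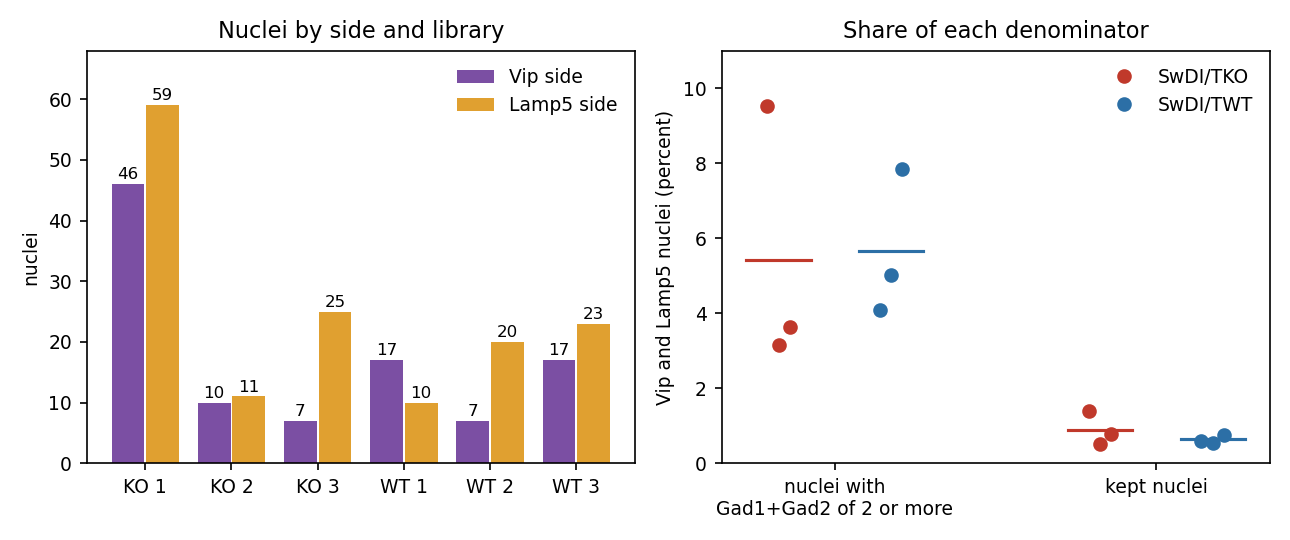
Left: number of nuclei on the Vip side and the Lamp5 side in each library (KO, SwDI/TKO; WT, SwDI/TWT). Right: Vip and Lamp5 nuclei as a percent of nuclei with at least 2 UMIs of Gad1 and Gad2, and of all kept nuclei, with 1 point per library and a bar at the mean; knockout replicate 1 is highest in both, and the 2 groups overlap.

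The number of Vip and Lamp5 nuclei recovered did not separate the genotypes. They were 9.52% (95% Wilson interval 7.94 to 11.4%), 3.14% (2.07 to 4.76%) and 3.62% (2.58 to 5.07%) of nuclei with at least 2 UMIs of Gad1 and Gad2 in the knockout libraries. In the wild-type libraries they were 4.07% (2.81 to 5.86%), 5.03% (3.50 to 7.17%) and 7.84% (5.81 to 10.5%). Knockout replicate 1 stood above every other library and the other 2 knockout libraries below every wild-type library, so the means of 5.43 ± 3.55% and 5.65 ± 1.96% (SD, n = 3 each) were close while the spread was wide (exact permutation test over 20 assignments, two-sided p = 0.9, smallest possible 0.1). As a share of all kept nuclei the means were 0.891 ± 0.448% in knockout and 0.634 ± 0.113% in wild type (exact permutation p = 0.6). The balance of the sides varied as much within a genotype as between them. The Vip side made up 43.8%, 47.6% and 21.9% of members of either side in knockout libraries and 63.0%, 25.9% and 42.5% in wild-type libraries (exact permutation p = 0.8). The 3 p-values adjusted to 0.9 each. Depth also differed between the libraries, and its part in these shares was not tested. Thinning every nucleus to 2000 UMIs left out 4956 knockout and 6463 wild-type nuclei. The share of kept nuclei was then 0.499 ± 0.107% in knockout and 0.612 ± 0.0829% in wild type, the opposite order (exact permutation p = 0.2). The other shares kept their order. Members were 5.52 ± 3.21% and 7.46 ± 3.06% of Gad1 and Gad2 nuclei, and the Vip side 42.7 ± 15.4% and 44.4 ± 27.1% of both sides.

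The Vip side and the Lamp5 side differed in some peptides, transcription factors and channels. The gate made this contrast, so it is described with no test. Levels are CPM of the counts summed over a side's nuclei, and 3 UMIs correspond to 9.17 to 160.4 CPM in a Vip-side sum and 5.67 to 88.4 CPM in a Lamp5-side sum. Of 6954 genes with at least 30 UMIs over the sides, 233 were higher on the Vip side in 6 of 6 libraries (3.35%) and 362 on the Lamp5 side (5.21%). Among 13 Vip partner genes with at least 30 UMIs that the gate did not use, 7 were higher on the Vip side in every library and 1, Reln, on the Lamp5 side, with a median log2 ratio of 2.05 where all genes had -0.08. Among 13 Lamp5 partner genes 11 were higher on the Lamp5 side in every library, with a median log2 ratio, Vip side over Lamp5 side, of -2.76. Most genes of other lists kept no such order. Of 36 voltage-gated channel genes 2 were higher on the Vip side in every library and 7 on the Lamp5 side. For 14 caudal lineage genes these counts were 3 and 1.

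Of 17 neuropeptide and secreted signal genes 5 were higher on the Vip side in every library, Crh, Tac2, Pthlh, Cxcl14 and Pcsk2, and 1, Npy, on the Lamp5 side, with a median log2 ratio of 1.43. Vip, chosen by the gate, stood at 2862, 4373 and 11537 CPM in knockout and 7081, 6095 and 9952 CPM in wild-type Vip-side sums. Tac2, the precursor of neurokinin B, had 263, 294 and 747 CPM in knockout and 654, 481 and 1795 CPM in wild-type libraries on the Vip side, against 5.67, 0 and 0 CPM in knockout and 88.4, 0 and 0 CPM in wild type on the Lamp5 side. Its side ranges did not overlap, and its median log2 ratio was 4.31. That was the highest among ranked genes, those outside the gate that were higher on the Vip side in every library. The ranking left out Gm, Rik, numbered-clone, mitochondrial and sex-linked genes. Crh, corticotropin-releasing hormone, had 64.2, 58.7 and 617 CPM in knockout and 519, 160.4 and 417 CPM in wild type on the Vip side, and at most 31.1 CPM in a Lamp5-side library. Calb2, the calcium buffer calretinin, ranged from 36.3 to 117 CPM on the Vip side and was at 0 in 4 of 6 Lamp5-side libraries. Pthlh, parathyroid hormone-like hormone, ranged from 48.9 to 195 CPM on the Vip side and was at 0 UMIs on the Lamp5 side in every library. Cck, the precursor of cholecystokinin, was less even: 220.2, 763 and 715 CPM in knockout and 135, 0 and 2157 CPM in wild type on the Vip side, higher than the Lamp5 side in 5 of 6 libraries.

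Few Vip-side nuclei held every peptide. Tac2 was detected in 49 of 104 nuclei, Penk, the enkephalin precursor, in 52, Cxcl14, a chemokine, in 52, Crh in 33, Cck in 33 and Calb2 in 23. Chat, which makes acetylcholine and is known in some Vip cells, was detected in 14 Vip-side nuclei and in 0 of 148 Lamp5-side nuclei, which allows a share of nuclei with a UMI of up to 2.03% and sets no limit on nuclei that express it. Of the 33 nuclei with Crh, 69.7% also held Tac2, against 36.6% of the other Vip-side nuclei, at median depths of 3819 and 3813 UMIs. The share of nuclei with Tac2 was likewise 69.7% with Cck and 36.6% without, but there the median depths were 5047 and 3512 UMIs. Calb2 and Cck were found together in 7 nuclei, 21.2% of the nuclei with Cck, against 22.5% of those without. A few nuclei carried much of the Cck signal, 5 of them 55.5% of its 245 UMIs.

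Some receptors and regulators also followed the sides. Htr3a, the ionotropic serotonin receptor subunit that is classically used to define this branch, had 33 UMIs on the Vip side and 6 on the Lamp5 side, with 27.5, 29.4 and 390.0 CPM in knockout and 135, 53.5 and 72.5 CPM in wild-type Vip-side sums, and it had 0 UMIs in Sst or Pvalb nuclei. Prox1, a homeobox factor of caudal interneurons, was at 236 to 552 CPM on the Vip side and 83.1 to 159.8 CPM on the Lamp5 side. Npas1, a basic helix-loop-helix repressor, was at 29.4 to 363 CPM and 0 to 116 CPM. The ranges of Prox1 on the sides did not overlap, while those of Npas1 did. Synpr, the synaptic vesicle protein synaptoporin, was at 214 to 1786 CPM on the Vip side and 0 to 102 CPM on the Lamp5 side. Grm8, an inhibitory glutamate autoreceptor, was higher on the Vip side in 6 of 6 libraries, at 90.6 to 725 CPM against 0 to 96.4 CPM, and so were Chrm3, Chrna4, Adrb1 and Chrm1 among receptors for acetylcholine and noradrenaline, while the noradrenaline receptor Adra1a was higher on the Lamp5 side in 6 of 6. Further genes that led the ratio, chosen after their values were seen, were Ano4, Ntm, Cbln2 and Sdk1, with median log2 ratios of 3.59, 2.87, 2.81 and 2.70.

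**Figure D2:**
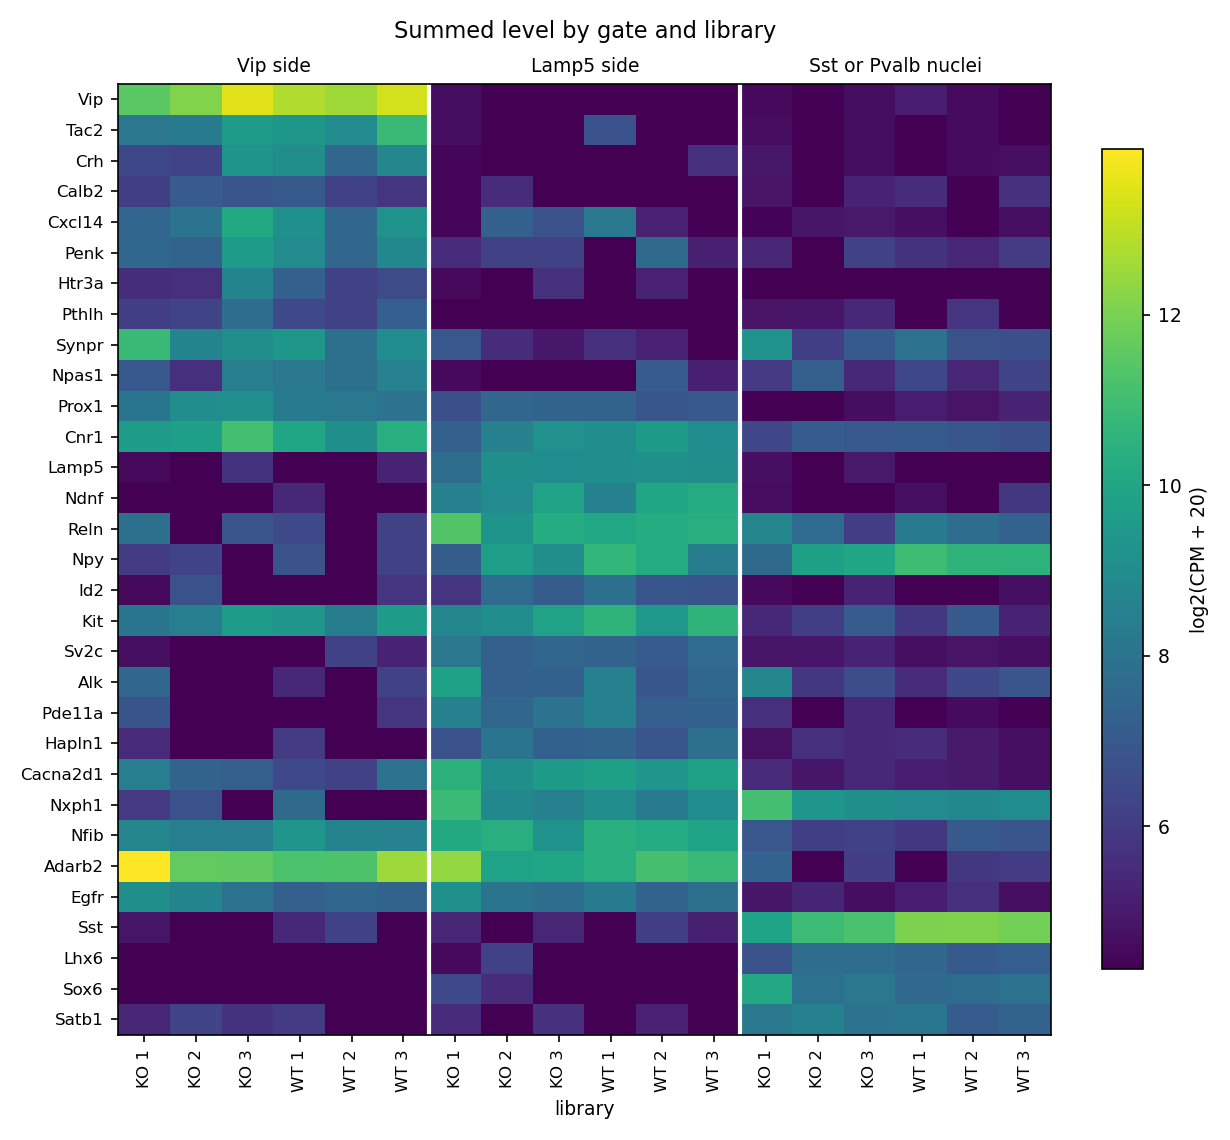
Level of 31 genes as log2(CPM + 20) in the summed nuclei of the Vip side, the Lamp5 side and the Sst or Pvalb gate, with 1 column per library. Tac2, Crh and Synpr are brightest in the Vip-side block in every library, Reln, Sv2c and Cacna2d1 in the Lamp5-side block, and Nxph1 and Npy are bright in both the Lamp5-side and the Sst or Pvalb blocks.

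Genes higher on the Lamp5 side included secreted proteins, receptors and channels. Reln, the secreted glycoprotein reelin, had 214, 0 and 97.5 CPM in knockout and 67.6, 0 and 54.4 CPM in wild type on the Vip side, against 2577, 612 and 1222 CPM in knockout and 1032, 1224 and 1274 CPM in wild type on the Lamp5 side. Cacna2d1, an auxiliary subunit of calcium channels that binds gabapentin, was at 53.5 to 327 CPM on the Vip side and 533 to 1447 CPM on the Lamp5 side. Sv2c, a synaptic vesicle glycoprotein, was at 0 to 53.5 CPM and 116 to 272 CPM. The 2 sides overlapped in none of these 3 genes. Kit, a receptor tyrosine kinase, was higher on the Lamp5 side in every library but within overlapping ranges, 248 to 761 CPM on the Vip side and 402 to 1503 CPM on the Lamp5 side. Nfib, a nuclear factor I regulator, was at 323 to 631 CPM and 600.5 to 1356 CPM. Pde11a, a cyclic nucleotide phosphodiesterase, and Hapln1, a link protein of the matrix, were at 0 in 4 Vip-side libraries each and at 132 to 354 CPM and 86.9 to 239.7 CPM on the Lamp5 side. Grik1, a kainate receptor subunit, was at 88.1 to 474 CPM and 529 to 1822 CPM, and Htr2a, a serotonin receptor, was at 0 in 5 Vip-side libraries and at 16.5 to 104 CPM in all 6 on the Lamp5 side. Ptprm, Bcl11b, Coro6, Bcl11a and Sgcz, chosen after their values were seen, had median log2 ratios of -3.61, -3.70, -3.46, -3.34 and -3.30.

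Nxph1 and Npy, higher on the Lamp5 side than on the Vip side, were also expressed in Sst or Pvalb nuclei. There both were above the members as a whole in 6 of 6 libraries. Nxph1, a secreted ligand of neurexins, was at 1852, 426 and 343 CPM in knockout and 501, 281 and 497 CPM in wild type on the Lamp5 side, near its 2147, 644 and 529 CPM in knockout and 476, 426 and 486 CPM in wild-type Sst or Pvalb nuclei. Npy, neuropeptide Y, was at 123, 826 and 525 CPM in knockout and 1621, 1191 and 311 CPM in wild type on the Lamp5 side. On the Vip side Nxph1 was at 0 in 3 libraries and Npy in 2. Detection was as uneven: 75.0% of Lamp5-side nuclei and 8.65% of Vip-side nuclei held a Nxph1 UMI, and 37.2% and 7.69% a Npy UMI.

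Npy and Reln were not spread evenly over the Lamp5 side. Of its 148 nuclei, 110 held a Ndnf UMI and 38 were admitted by Lamp5 alone. Reln was at 3026, 953 and 1409 CPM in knockout and 1550.0, 1608 and 1678 CPM in wild-type nuclei with Ndnf, against 1263, 129 and 0 CPM in knockout and 158, 372 and 173 CPM in wild-type nuclei without it. Npy had the opposite order, at 45.6, 409 and 148 CPM in knockout and 1080.3, 0 and 63.7 CPM in wild-type nuclei with Ndnf, against 349, 1417 and 2988 CPM in knockout and 2532, 3828 and 983 CPM in wild-type nuclei without it. Both orders held in 6 of 6 libraries. A few nuclei carried much of the Npy signal, 5 of them 42.8% of its 292 Lamp5-side UMIs, and 1 nucleus held 32. Cnr1, the cannabinoid receptor of presynaptic terminals, and Nr2f2, the nuclear receptor COUP-TFII, were also higher with Ndnf in 6 of 6 libraries. Medians were 605 and 215 CPM for Cnr1 and 96.4 and 62.3 CPM for Nr2f2. Nr2f2 was near the floor, with 13 UMIs in all nuclei without Ndnf and 0 CPM there in knockout replicate 2 and wild-type replicate 1. The share of all genes with 1 order in every library was not counted for this split. Kit was higher with Ndnf in 5 of 6 libraries, with medians of 806 and 796 CPM. The group without Ndnf held 3 to 13 nuclei and 12382 to 134613 UMIs per library, and since Ndnf is a gate gene the split is a description with no test.

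**Figure D3:**
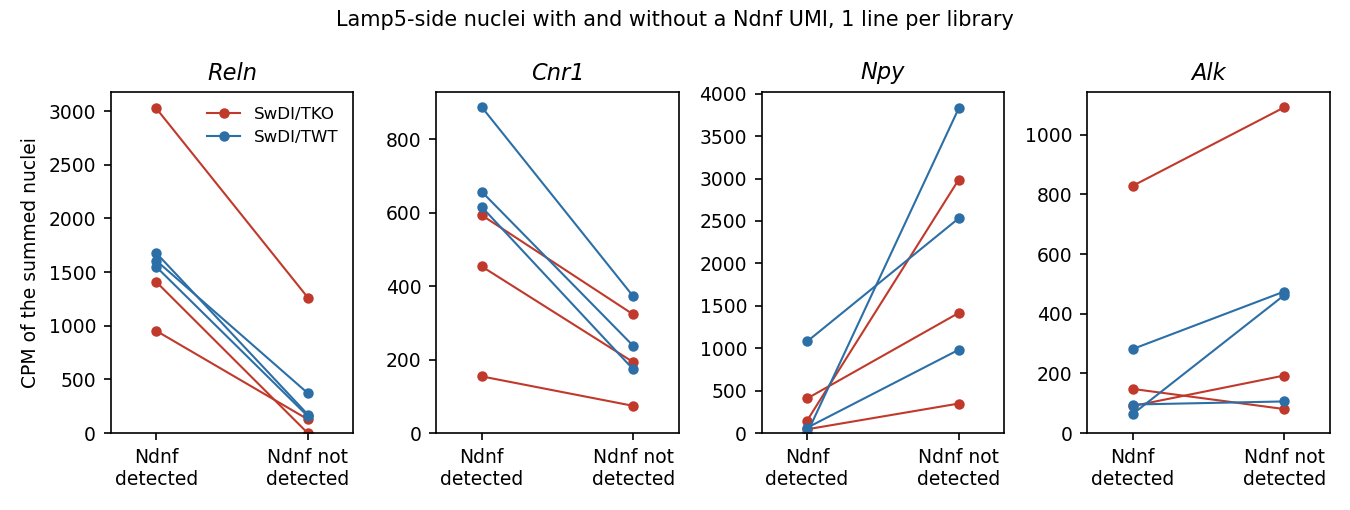
CPM of Reln, Cnr1, Npy and Alk in the summed Lamp5-side nuclei of each library, split by whether the nucleus held a Ndnf UMI; each line joins the 2 sums of a library. Reln and Cnr1 are lower without Ndnf in 6 of 6 libraries, Npy is higher in 6 of 6 and Alk in 5 of 6.

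Against Sst or Pvalb nuclei, which the gate also set apart, the members as a whole shared a caudal profile. Of 10079 genes with at least 30 UMIs, 582 were higher in members in 6 of 6 libraries (5.77%) and 528 lower (5.24%). Of 18 caudal lineage genes 12 were higher in every library and none lower, and of 16 medial lineage genes none was higher and 12 were lower. Egfr, the epidermal growth factor receptor, had a median log2 ratio of 2.99 over Sst or Pvalb nuclei, Prox1 2.98, Nfib 2.91 and Kit 2.91. Cacna2d1 had 3.90, the highest among genes outside the gate that were higher in members in every library, ranked with the same names left out. Erbb4, the neuregulin receptor of interneurons, had 1.15. Among 38 voltage-gated channel genes 6 were higher in members in every library, among them the calcium-activated potassium channel Kcnn2 with a median log2 ratio of 2.49. The 11 that were lower included Kcna1 and also Kcnc1 and Kcnc2, whose subunits support fast firing. Of 16 GABA receptor genes 5 were higher, including Gabrb2, and 2 lower, Gabra3 and Gabrg1. None of 13 mitochondrially encoded transcripts, 13 activity genes or 16 chaperone genes differed in one direction in all 6 libraries.

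Loss of Trem2 was tested on counts summed over all members of a library with edgeR's quasi-likelihood test and Benjamini-Hochberg adjustment. None of 1926 genes passed an adjusted p of 0.05 (0%). Unadjusted, 141 were under 0.05, 109 higher and 32 lower in knockout, and DESeq2 called none, with 193 under 0.05. Without knockout replicate 1 none of 1791 genes passed, with 67 under 0.05. On the Lamp5 side none of 975 genes passed (0%), with 54 under 0.05 and none called by DESeq2, which had 119, and without knockout replicate 1 none of 1148, with 44. The Vip side was not fitted, because knockout replicate 3 and wild-type replicate 2 held 7 Vip-side nuclei each, under the minimum of 10, and the sides' genotype effects were therefore not compared.

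The genes with the smallest p in the pooled members are given as values, since none was called. Zfp148, a zinc finger transcription factor, was at 196, 144 and 108 normalized CPM in knockout and 38.0, 33.9 and 52.0 in wild type, a log2 difference of 1.98 ± 0.45 (SE; edgeR adjusted p = 0.612). Its groups did not overlap, and without knockout replicate 1 the difference was 1.57. Ppp2r5e, a regulatory subunit of protein phosphatase PP2A, was at 166, 105 and 93.2 in knockout and 25.3, 33.9 and 26.0 normalized CPM in wild type. Rnasek, a small membrane ribonuclease, was at 53.6, 39.2 and 78.9 in knockout and 152, 169.7 and 225 normalized CPM in wild type, a log2 difference of -1.54 ± 0.37 that was -1.47 without knockout replicate 1. Mapk8ip1, a scaffold of the JNK pathway, was at 70.5, 105 and 100.4 in knockout and 215, 215 and 208 normalized CPM in wild type, log2 differences of -1.17 ± 0.33 and, without knockout replicate 1, -0.997. Nf1, the Ras regulator neurofibromin, and Farp1, a synaptic guanine exchange factor, had log2 differences of 1.89 ± 0.56 and 1.90 ± 0.51, and that of Nf1 was 1.19 without knockout replicate 1. None of these 6 genes had groups that overlapped, and Ppp2r5e and Farp1 had too few counts to be tested without knockout replicate 1. They were picked by smallest p, and the expression filter can admit a gene through its higher group alone, so their separation is no further evidence. The same applies to genes named below for their p. In CPM of all members, 3.95% of 6993 genes with at least 30 UMIs had every knockout library below every wild-type library, and 5.71% above.

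Other leading genes were far smaller in difference without knockout replicate 1. Ptprm, a receptor phosphatase and adhesion molecule, was at 1366, 209 and 179 in knockout and 101, 124 and 104 normalized CPM in wild type, a log2 difference of 2.58 ± 0.81 that was 0.85 without that library. Gpr158, an orphan receptor of neurons, was at 768, 170.0 and 143 in knockout and 63.4, 102 and 78.0 normalized CPM in wild type, with log2 differences of 2.33 and 0.96. The genes with an unadjusted p under 0.05 that were higher in knockout had a median of 324637 intron bases, those lower 11302.5 and all tested genes 48249. Of the 141 genes, 109 could be tested without knockout replicate 1 and 27 kept an unadjusted p under 0.05 with the same sign. Cell Ranger version and animal cannot be told apart for that library.

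On the Lamp5 side alone the smallest p values were again in genes with wide swings in knockout replicate 1: Gpr158, Ptprm, Dscaml1, Cntnap2, Lrrc4c, Dlgap2 and Unc5d, with log2 differences of 2.24 to 3.72 in all 6 libraries and 0.11 to 1.14 without it. Eif4g3, a translation initiation scaffold, had 462, 301 and 319.9 in knockout and 203, 179 and 129 normalized CPM in wild type, log2 differences of 1.32 ± 0.42 and, without that library, 1.04. D10Wsu102e had 65.9, 150.7 and 169 in knockout and 289, 375 and 387 normalized CPM in wild type, log2 differences of -1.41 ± 0.44 and -0.99. Cpne6, a calcium-dependent membrane-binding copine, had 70.5, 50.2 and 56.5 in knockout and 203, 163 and 209.6 normalized CPM in wild type, log2 differences of -1.38 ± 0.46 and -1.64. For these 10 genes the adjusted p was 0.649.

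Neuropeptide and secretory genes had lower values in knockout as a list. Of 28 listed genes 15 outside the gate were tested in the pooled members, and 14 had a negative log2 difference with a median of -0.62, where 49.0% of all tested genes were negative and their median was 0.02. None was called (0% of all genes), and 3 had an unadjusted p under 0.05. Without knockout replicate 1 the list again had 14 of 15 negative, with a median of -0.43, against 50.4% of all genes. Scg3, a secretogranin that sorts cargo into dense-core vesicles, was at 59.2, 65.4 and 64.5 in knockout and 177, 102 and 182 normalized CPM in wild type, a log2 difference of -1.20 ± 0.37 (edgeR adjusted p = 0.612) that was -1.19 without that library. Chga, chromogranin A, a core protein of the same vesicles, was at 70.5, 13.1 and 100.4 in knockout and 215, 136 and 208 normalized CPM in wild type, a log2 difference of -1.34 ± 0.48 (edgeR adjusted p = 0.612) that was -1.41 without it. On the normalized scale every knockout library lay below every wild-type library for Scg3, Chga, Chgb and Scg2. The share of all genes that did so on that scale was not counted. In CPM of all members Scg2 overlapped, which left 3 of 18 listed genes, against 3.95% of 6993 genes. Tac2 was at 125, 131 and 165 in knockout and 406, 102 and 858 normalized CPM in wild type, a log2 difference of -1.60 ± 0.63. It was -1.56 without knockout replicate 1 and -0.76 without wild-type replicate 3. The groups overlapped through wild-type replicate 2, and they also overlapped in the Vip-side CPM of Tac2 given above.

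**Figure D4:**
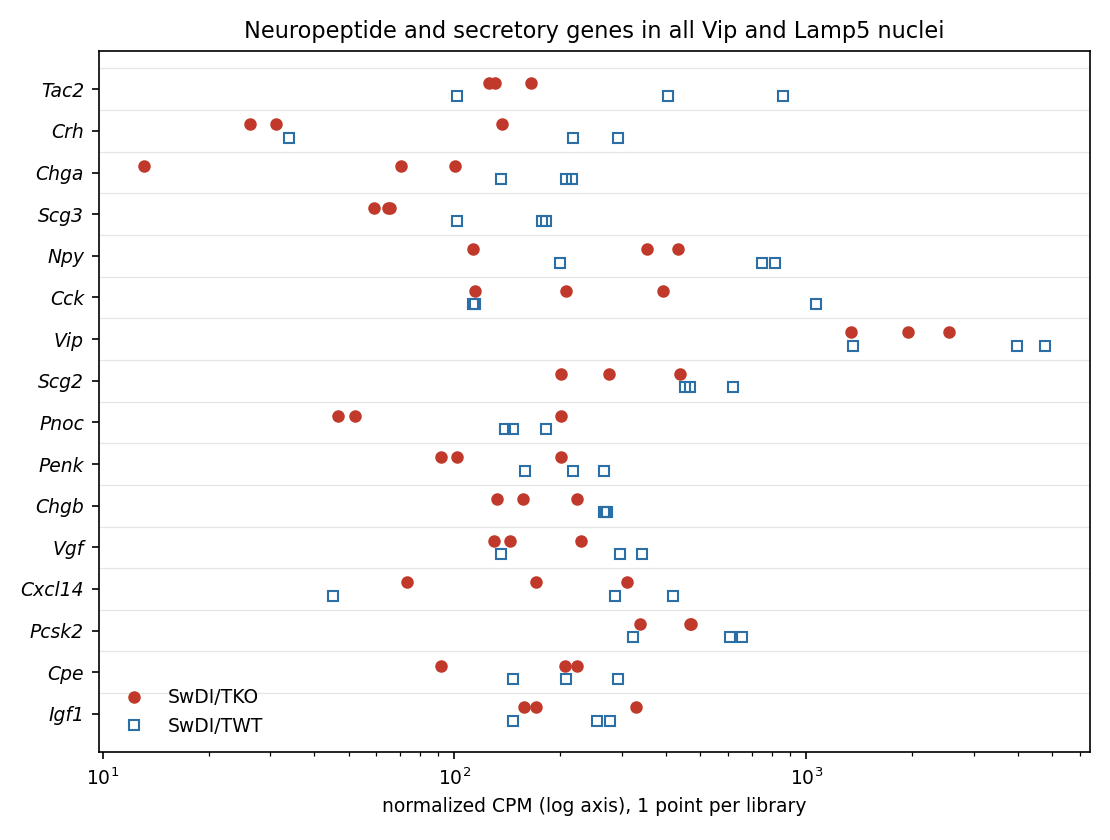
Normalized CPM (log axis) of 16 neuropeptide and secretory genes, Vip included, in all Vip and Lamp5 nuclei, with 1 point per library and the lowest log2 difference at the top. Scg3, Chga, Chgb and Scg2 have all 3 knockout points below all 3 wild-type points, and Igf1 is the gene with a positive difference.

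Tac2, Crh and Cxcl14 were higher on the Vip side in 6 of 6 libraries, Scg3 in 5 and Chga in 4, and the pooled sums mix the sides in unequal shares. The Vip side gave 38.2%, 47.6% and 24.8% of side UMIs in knockout and 56.7%, 23.6% and 46.2% in wild type, and its part in the pooled values was not tested. In such sums more nuclei of a side and more RNA per nucleus cannot be told apart. Within the Vip side, described by CPM with no test, 14 of 17 listed genes with at least 30 UMIs had a lower mean in knockout, against 41.1% of 3189 such genes. Scg3 was at 88.7, 58.7 and 162 CPM in knockout and 225, 214 and 308 CPM in wild type, Chgb at 125, 147 and 260.0 CPM and 338, 481 and 344 CPM, and Scg2 at 254, 176 and 455 CPM and 925, 481 and 526 CPM. Every knockout library lay below every wild-type library in these 3 of 17 genes, as in 4.33% of all Vip-side genes. In CPM of all members it was 3 of 18, Scg3, Chga and Chgb, against 3.95% of genes. Within the Lamp5 side 9 of 12 had a lower mean CPM in knockout, against 42.6% of 5094 genes, but on the normalized scale of the fit 3 of 7 tested genes were negative, and 2 of 8 without knockout replicate 1. On that side 1 of the 12, Vgf, had every knockout library below every wild-type library, against 3.69% of genes. Scg3 overlapped there, with 24.6, 79.9 and 42.9 CPM in knockout and 118, 82.7 and 62.1 CPM in wild type. In Sst or Pvalb nuclei 12 of 16 listed genes had a lower mean CPM in knockout, against 39.8% of 7950 genes. Every knockout library lay below every wild-type library in 4 of the 16, Npy, Scg3, Vgf and the gate gene Sst, against 3.86% of genes. In excitatory nuclei these were 17 of 25 against 42.5% of 15934 genes, and 5 of 25 against 2.92%. On the normalized scale 6 of 9 tested genes were negative in Sst or Pvalb nuclei, where 46.7% of all genes were, and 6 of 10 without knockout replicate 1. Scg3 was at 59.6, 29.7 and 70.5 CPM in knockout and 104, 89.5 and 102 CPM in wild-type Sst or Pvalb nuclei.

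Vip, Scg3 and Chga are shown because Vip defines its side, because Scg3 and Chga had the smallest unadjusted p of the secretory list, and because promoters of this class are known for cyclic AMP response elements. The 250 bases before each RefSeq start (GRCm38.p6) follow, at chr10:5638968-5639217 on the plus strand, chr9:75684057-75684306 on the minus strand and chr12:102554691-102554940 on the plus strand, with TGACG or its reverse complement CGTCA in capitals.
Vip: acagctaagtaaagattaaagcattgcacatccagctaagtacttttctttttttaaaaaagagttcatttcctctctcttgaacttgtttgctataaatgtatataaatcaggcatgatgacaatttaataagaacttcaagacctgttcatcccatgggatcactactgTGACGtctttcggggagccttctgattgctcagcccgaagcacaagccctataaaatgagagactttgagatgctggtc
Scg3: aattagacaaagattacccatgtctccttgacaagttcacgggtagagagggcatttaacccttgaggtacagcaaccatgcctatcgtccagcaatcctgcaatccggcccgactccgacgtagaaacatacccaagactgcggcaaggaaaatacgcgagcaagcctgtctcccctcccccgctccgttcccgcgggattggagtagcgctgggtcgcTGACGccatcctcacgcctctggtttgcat
Chga: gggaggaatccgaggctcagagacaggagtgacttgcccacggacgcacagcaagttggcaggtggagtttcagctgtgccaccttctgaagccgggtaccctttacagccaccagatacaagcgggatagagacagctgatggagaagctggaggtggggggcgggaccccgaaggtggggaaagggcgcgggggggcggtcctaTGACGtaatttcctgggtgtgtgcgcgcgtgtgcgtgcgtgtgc
Each window held 1 match, which began 79, 30 and 44 bases before the start. Of the listed genes 22 had RefSeq windows, 30 in all, of which 15 held the 5 letters on either strand, as did 17.8% of all 32851 windows. A match describes letters in a window and not a bound site.

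Genes of amyloid precursor protein handling were also mostly lower in knockout in the pooled members. Of 8 tested 6 had a negative log2 difference, with a median of -0.29, against 49.0% of all tested genes. Without knockout replicate 1 it was 7 of 7, against 50.4%. On the Lamp5 side 2 of 4 were negative, against 47.0% of all genes, and 2 of 5 without knockout replicate 1. In Sst or Pvalb nuclei 8 of 11 were negative, against 46.7% of all genes, and 7 of 11 without knockout replicate 1. Clu, clusterin, a secreted chaperone that binds amyloid, was at 69.1, 26.2 and 86.1 in knockout and 203, 113 and 191 normalized CPM in wild type, a log2 difference of -1.25 ± 0.43 (edgeR adjusted p = 0.612) that was -1.35 without that library. It was -1.17 ± 0.34 in Sst or Pvalb nuclei, where the class by genotype term was 0.03 ± 0.43, so no difference between the classes was detected. Without knockout replicate 1 these were -1.14 and -0.26. Mouse App was at 688, 301 and 667 in knockout and 748, 566 and 824 normalized CPM in wild type, and Apoe at 86.0, 105 and 186 in knockout and 165, 90.5 and 234 normalized CPM in wild type, both with overlapping groups. Their log2 differences were -0.25 and -0.33, and -0.46 and -0.07 without knockout replicate 1. Whether App reads include transgene transcripts was not tested.

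Of the caudal lineage genes 8 of 12 tested had a positive and 4 a negative log2 difference, 5 and 5 without knockout replicate 1. Npas1 was at 52.2, 13.1 and 71.7 in knockout and 152, 124 and 182 normalized CPM in wild type, a log2 difference of -1.48 ± 0.47 (edgeR adjusted p = 0.612), and -1.57 without that library. Its groups did not overlap in the pooled members, and on the Vip side it was at 107, 29.4 and 325 CPM in knockout and 271, 214 and 363 CPM in wild type, which overlap. Erbb4 shows the weight of knockout replicate 1: 10072, 484 and 567 in knockout and 672, 362 and 563 normalized CPM in wild type, a log2 difference of 2.96 ± 1.09 that was 0.04 without that library.

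Lists of synapse and excitability genes had lower medians without that library. Synaptic adhesion genes were positive in 14 of 17 with a median of 1.31, but in 5 of 17 with a median of -0.10 without it, and Tenm2, a teneurin, had log2 differences of 3.42 and, without it, -0.08. GABA receptor subunits were positive in 9 of 11, with a median of 1.21, and in 4 of 10, with a median of -0.03, without it. Glutamate receptor subunits were positive in 13 of 15 and in 8 of 12. Voltage-gated channels were positive in 20 of 23 with a median of 0.52, and in 14 of 22 with a median of 0.22 without that library. Scn8a, the sodium channel of the spike initiation zone, was at 249.5, 262 and 215 in knockout and 139, 136 and 156 normalized CPM in wild type, non-overlapping groups, with a log2 difference of 0.84 ± 0.33 (edgeR adjusted p = 0.612) and 0.75 without that library.

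**Figure D5:**
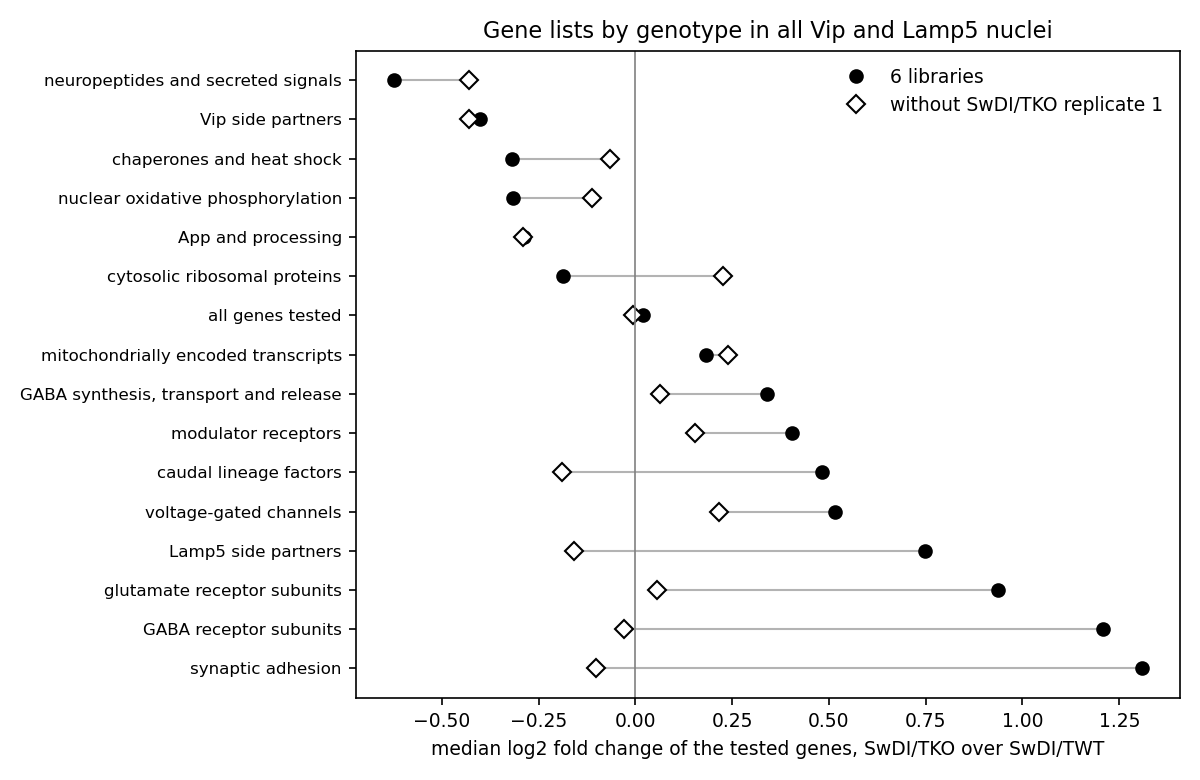
Median log2 difference, SwDI/TKO over SwDI/TWT, of the tested genes of each list in all Vip and Lamp5 nuclei with 6 libraries (filled circles) and without knockout replicate 1 (open diamonds). Synaptic adhesion has 1.31 and -0.10, and neuropeptides and secreted signals have -0.62 and -0.43.

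Transcripts of protein synthesis and respiration gave smaller values. Cytosolic ribosomal protein genes were positive in 7 of 22 with a median of -0.19, but in 21 of 26 with a median of 0.23 without knockout replicate 1, and on the Lamp5 side in 4 of 8 with a median of 0.04, and in 16 of 16 with a median of 0.60 without it. Mitochondrially encoded transcripts were positive in 9 of 10 both times, with medians of 0.18 and 0.24, and median mitochondrial shares of member UMIs were 0.936, 0.852 and 2.23% in knockout and 2.14, 1.43 and 0.603% in wild type. The 4 of them with the smallest p, mt-Nd5, mt-Co3, mt-Atp6 and mt-Nd1, had overlapping groups. In the pooled members, with and without that library, nuclear oxidative phosphorylation genes were positive in 3 of 13 and 4 of 12, and chaperones in 1 of 8 and 1 of 6. GABA synthesis and release genes were positive in 7 of 10 and 6 of 10, and modulator receptors in 5 of 6 and 3 of 5. On the Lamp5 side oxidative phosphorylation genes were positive in 2 of 4 and 8 of 9, and chaperones in 2 of 5 and 5 of 6. Of all tested genes 49.0% and 50.4% were negative in the pooled members, and 47.0% and 48.3% on the Lamp5 side.

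Whether the genotype difference of Vip and Lamp5 nuclei differed from that of Sst or Pvalb nuclei was tested with an interaction of class and genotype, blocked by library. None of 3717 genes passed (0%), 162 had an unadjusted p under 0.05, and none of 3646 passed without knockout replicate 1. The smallest p among named genes was that of Rimbp2, a presynaptic active zone protein, which was at 276, 307 and 298 CPM in knockout and 332, 388 and 218 CPM in wild-type members, and at 194, 99.1 and 106 CPM in knockout and 84.8, 63.9 and 44.8 CPM in wild-type Sst or Pvalb nuclei (log2 term -1.30 ± 0.39, edgeR adjusted p = 0.999, and -0.74 without knockout replicate 1). The Prox1 term of 3.44 ± 1.05, which was 2.29 without knockout replicate 1, rests on 8 UMIs in all Sst or Pvalb nuclei. For Scg3 the term was -0.58 ± 0.43 and for Chga -0.58 ± 0.41 (edgeR adjusted p = 0.999 for both), and -0.23 and -0.67 without knockout replicate 1, so the lower values of these genes were not shown to differ between the classes.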

How the data were processed

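The deposited files are filtered gene by barcode matrices of raw UMI counts, 1 per library, made by the authors with Cell Ranger 6.1.2 in 5 libraries and 7.0.0 in SwDI/TKO replicate 1, per the file headers, and with mm10 and Seurat, per the submitters' processing notes. The sources used here name neither the gene annotation nor the treatment of intronic reads. Members and gene lists were chosen with earlier results of these data known. Counts were summed per library and tested with edgeR 4.0.16 (TMM, expression filter, quasi-likelihood test, Benjamini-Hochberg) in R 4.3.3, with DESeq2 1.42.0 as an alternative, where each library gave at least 10 nuclei. Normalized CPM use TMM factors, and CPM do not. Side ratios are log2 of CPM plus 20 within a library. The rule named gate genes, partner and caudal genes with at least 20 UMIs, the 10 smallest p per fit and the 4 smallest per list, and genes outside it were named after their values were seen. Doublets were kept, and Scrublet (scanpy 1.11.5) calls were an alternative. Intron lengths came from GENCODE M21, which held 99.6% of gene IDs. Fits were also run on simulated data in which all libraries had the same composition apart from planted changes. Those data do not cover a library that differs as knockout replicate 1 does. Intervals and limits cover counting error only, and p-values the spread between 3 mice a group.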

Additional observations from a re-analysis of the deposited data

How the results depend on the processing

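With 3 mice a group and 21 to 106 members a library, small differences were not detectable, and 1 deep library with another Cell Ranger version weighed on every fit of 6. With no filter on low counts edgeR called 342 genes in all members, 223 on the Lamp5 side and 1 for the interaction with Sst or Pvalb nuclei. Of the 342, knockout replicate 1 held over 90% of the UMIs in 298, and 46 were at 0 elsewhere. With each library left out the counts of called genes were 0 in all 3 fits. They were also 0 in all members and on the Lamp5 side under RLE, DESeq2, both doublet removals, the stricter gate and Adarb2 asked of the Vip side, which were not run for the interaction.

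The knockout minus wild-type difference in the share of kept nuclei was -0.114 percentage points after thinning, the opposite of its 0.257, and 0.0115 to 0.451 with each library left out. For the share of Gad1 and Gad2 nuclei it was 0.423 under the stricter gate (Vip at least 5, or Lamp5 and Ndnf at least 3) and -2.27 to 0.924 with each library left out, and for the Vip side's percent of both sides -15.0 to 3.55. The cause was not tested.

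Genes higher on the Vip side in every library numbered 180 to 375 with each library left out, 351 without knockout replicate 2 and 375 without wild-type replicate 2. On the Lamp5 side they numbered 314 to 580, with 580 without knockout replicate 2. Fewer libraries then had to share a direction. Side alternatives and removal of the highest 6% of doublet scores were chosen after seeing the data, since Scrublet's automatic threshold marked 1 and 2 nuclei in 2 libraries.

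Log2 differences that changed sign with a library left out ranged from -0.58 to 1.48 for Synpr, -0.0872 to 1.83 for Nxph1, -0.21 to 0.99 for Syt1, -0.0051 to 2.28 for Gabrg3, -0.23 to 0.69 for Adra1a, -0.0847 to 4.01 for Tenm2, -0.79 to 0.11 for Hspa5, -0.0297 to 0.41 for mt-Atp6, -0.0263 to 0.48 for mt-Nd1, -0.90 to 0.0043 for Rps27, -0.0217 to 0.63 for Mapt, -1.35 to 1.06 for Cck, -1.13 to 0.14 for Cxcl14, -0.43 to 0.30 for Igf1, -0.17 to 1.21 for Reln, -0.14 to 0.00117 for Hapln1, -0.15 to 0.98 for Cacna2d1, -1.01 to 2.99 for Npas3, -0.42 to 0.19 for Nfib, -0.20 to 0.15 for Gad1, -0.0912 to 0.0713 for Gad2, -0.57 to 0.0531 for Lamp5, -0.67 to 1.46 for Adarb2, -0.46 to 0.0534 for App and -0.74 to 0.0426 for Apoe. The sign also changed under the stricter gate for Igf1 (-0.0695), Npy (0.94), Nfib (0.18) and Gad2 (0.11), under RLE for Nfib (0.00377) and Gad2 (0.0287), with no filter for Nfib (0.0338) and Gad2 (0.0519), and with the highest 6% of doublet scores removed for Hapln1 (-0.0108), Gad1 (-0.000937) and Apoe (0.0782). None of these genes was called in the filtered edgeR fit of 6 libraries, and the cause was not tested. Alternatives for the Vip side alone, and for Vip side against Lamp5 side, were not run, since those fits lacked nuclei. No paired analysis was possible because replicate numbers follow accession order and pair no mice.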
